A study of Mus musculus with 6 samples.

Results

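The loci of 10 Polycomb genes were read from 2 ATAC-seq peak lists, 1 for WT cells and 1 for clone 3 of the Spen KO (clone 3 from here on). The genes were Ezh2, Ezh1, Eed, Suz12, Jarid2, Rnf2, Ring1, Pcgf3, Pcgf5 and Rybp. A peak was assigned to a locus when it overlapped the gene body or lay within 20 kb of it in the GENCODE annotation of mm9. This gave 22 of 22698 peaks in the WT list and 24 of 23656 peaks in the clone 3 list on chromosomes 1 to 19 and X. The rule for the members uses gene names alone, and the genes were chosen with earlier results of these data known.

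Both lines are HATX mouse embryonic stem cells (mESCs) of mixed genomic background. They are haploid, carry an X-linked Xist transgene that doxycycline switches on, and were grown in serum with LIF. The KO line is a single clone in which most or all of Spen, the gene of an RNA-binding repressor that Xist recruits, had been deleted. The 6 sample records cover WT, Spen KO clone 2 and clone 3, each untreated and after 48 hr of doxycycline at 2 ug/ml. A list carries the name of its line and no treatment, so it is not known which of these cells it came from. Clone 2 is not analysed here. In ATAC-seq the Tn5 transposase inserts sequencing adapters into accessible DNA, so a peak is a stretch of open chromatin. Each list combines 2 replicates of a line, called technical in the methods, through the Irreproducible Discovery Rate (IDR), and each peak carries 1 value per replicate, whose scale is not named. Since each line has 1 untreated and 1 doxycycline record, the 2 values of a list could also be those of the 2 treatments, which the sources do not settle. The mean of both values is called the score. Ranks are given as percentiles within a list, where the highest value stands at the top of the scale. With 1 list per line there was no test between the lines, and even 2 replicates against 2 could not go below an exact two-sided p of 0.333.

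Polycomb repressive complex 2 (PRC2) methylates lysine 27 of histone H3. Its catalytic subunit is Ezh2 or Ezh1, Eed binds the methylated product and Suz12 is the scaffold of the core, while Jarid2 is an accessory subunit that joins part of the complexes. Polycomb repressive complex 1 (PRC1) ubiquitinates histone H2A through the E3 ligases Rnf2 (Ring1B) and Ring1 (Ring1A), and Pcgf3, Pcgf5 and Rybp belong to its variant forms. On the inactive X chromosome, variant PRC1 with Pcgf3 or Pcgf5 is known to be brought in by Xist RNA and to precede PRC2.

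Of the 22 WT peaks, 9 lay within 1 kb of an annotated transcription start site (TSS) of the listed gene itself, 5 lay at the TSS of another coding gene inside the window and 8 were distal, that is, farther than 1 kb from any TSS of a coding gene. The clone 3 list held 9, 4 and 11 peaks of these kinds. Suz12 and Ezh2 had the simplest loci, with a single peak at the TSS in each list and nothing else in windows of 81.0 kb and 105 kb. Jarid2, the longest gene at 192 kb, held 4 peaks in each list. The median over the 10 windows was 2.45 peaks per 100 kb in both lists, against 1.76 in WT and 1.66 in clone 3 over 22350 coding genes.

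**Figure D1:**
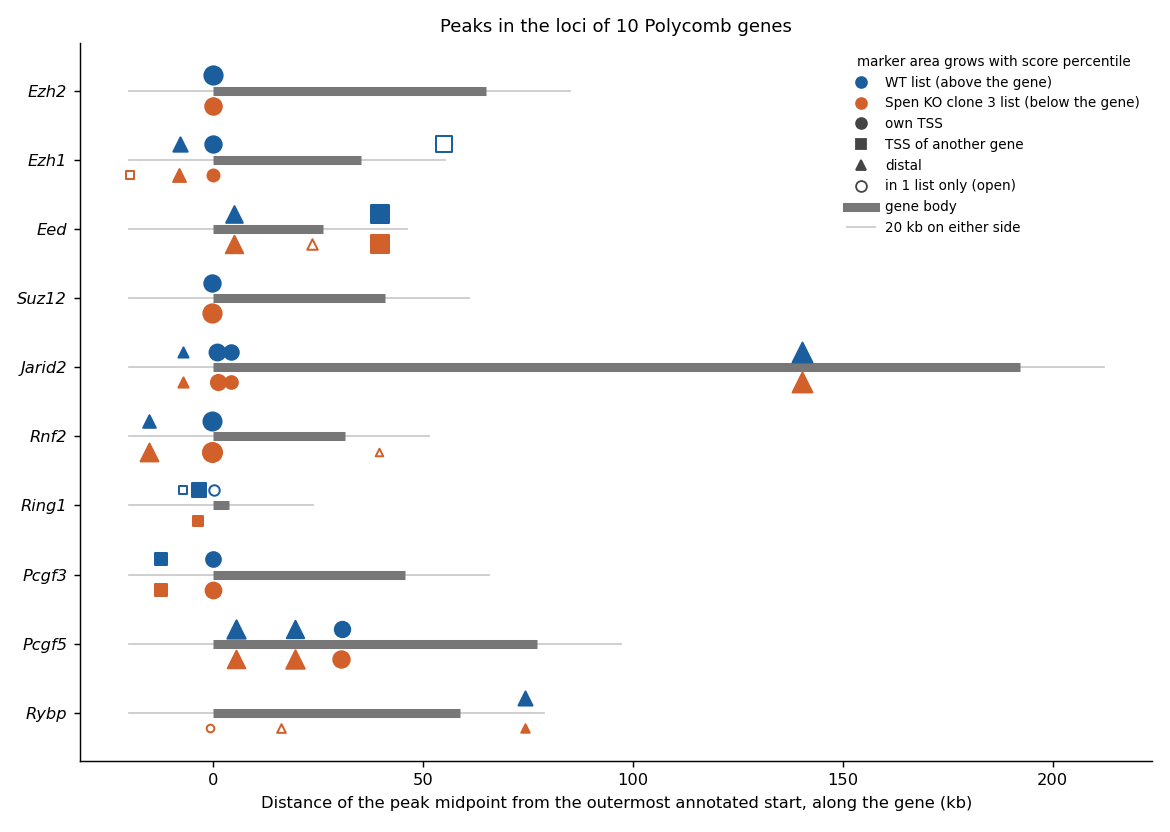
Each row is a Polycomb gene, with its body as a thick bar and the 20 kb on either side as a thin line, drawn by distance in kb from the outermost annotated start. Blue markers above the bar are WT peaks and orange markers below it are clone 3 peaks, with marker area growing with score percentile, shape giving the class and open markers standing for peaks found in 1 list. Of the 10 genes, 7 carry own TSS markers in both lists, Eed carries none, and the largest markers away from a start are those of the Jarid2 intron.

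The sequences below are from the mm9 genome and are written 5′ to 3′ on the strand of the gene. They show the stretches just upstream of a start for the 5 genes whose own TSS peak ranked apart in the 2 lists, the upstream stretch at Rybp that was called in clone 3 only, and 2 distal peaks of contrasting base composition. Capitals mark matches to 8 motifs that were searched on both strands, namely ETS (CCGGAAGT), NRF1 (GCGCATGC), YY1 (AAGATGGCG), SP/KLF (GGGGCGGG), E2F (GGCGGGAA), the Oct4 octamer (ATGCAAAT), Esrrb (CAAGGTCA) and CTCF (CAGGGGGC). The letters GGCGGG belong to both the SP/KLF and the E2F motif, so 1 stretch can hold both. The positions are chr6:47545341-47545540 (minus strand) for Ezh2, chr11:101087778-101087977 (minus) for Ezh1, chr11:79806408-79806607 (plus) for Suz12, chr1:153348122-153348321 (minus) for Rnf2, chr19:36484038-36484237 (plus) for Pcgf5, chr6:100237764-100237963 (minus) for Rybp, chr1:153362923-153363122 (minus) for the distal peak of Rnf2 and chr13:44965074-44965273 (plus) for the distal peak in the Jarid2 intron.
Ezh2 upstream: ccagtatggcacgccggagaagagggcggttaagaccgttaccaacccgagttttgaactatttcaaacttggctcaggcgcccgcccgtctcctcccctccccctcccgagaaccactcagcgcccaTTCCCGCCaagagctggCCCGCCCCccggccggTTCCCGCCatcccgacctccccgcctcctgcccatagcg
Ezh1 upstream: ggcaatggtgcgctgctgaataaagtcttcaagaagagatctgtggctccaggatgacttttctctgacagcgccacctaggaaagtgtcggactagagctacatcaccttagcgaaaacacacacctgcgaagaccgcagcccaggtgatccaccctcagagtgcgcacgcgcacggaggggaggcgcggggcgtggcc
Suz12 upstream: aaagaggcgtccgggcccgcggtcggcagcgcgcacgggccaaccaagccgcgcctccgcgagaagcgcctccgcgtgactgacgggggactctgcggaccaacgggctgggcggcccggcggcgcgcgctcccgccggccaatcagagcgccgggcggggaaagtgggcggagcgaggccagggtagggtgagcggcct
Rnf2 upstream: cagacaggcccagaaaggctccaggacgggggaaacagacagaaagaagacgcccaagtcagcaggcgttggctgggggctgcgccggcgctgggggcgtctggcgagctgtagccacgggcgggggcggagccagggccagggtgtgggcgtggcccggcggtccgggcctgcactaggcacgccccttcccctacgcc
Pcgf5 upstream: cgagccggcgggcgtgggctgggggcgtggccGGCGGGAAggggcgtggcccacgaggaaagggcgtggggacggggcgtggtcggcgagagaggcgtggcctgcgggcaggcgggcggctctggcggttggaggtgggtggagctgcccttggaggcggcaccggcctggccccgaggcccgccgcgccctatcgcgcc
Rybp upstream: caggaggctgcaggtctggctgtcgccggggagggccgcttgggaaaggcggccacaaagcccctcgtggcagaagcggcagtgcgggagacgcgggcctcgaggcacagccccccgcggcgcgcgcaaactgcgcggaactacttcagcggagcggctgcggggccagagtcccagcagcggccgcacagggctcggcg
Rnf2 distal: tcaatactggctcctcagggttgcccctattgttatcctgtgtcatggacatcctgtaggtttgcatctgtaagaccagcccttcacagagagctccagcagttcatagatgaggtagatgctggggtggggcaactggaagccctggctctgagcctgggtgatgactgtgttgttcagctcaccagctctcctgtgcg
Jarid2 intron: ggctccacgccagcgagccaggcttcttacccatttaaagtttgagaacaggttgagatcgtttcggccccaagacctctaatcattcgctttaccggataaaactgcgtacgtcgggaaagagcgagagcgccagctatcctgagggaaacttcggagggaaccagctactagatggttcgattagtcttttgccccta

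Each stretch is 200 bases long. The Suz12 stretch holds 32 CpG dinucleotides, the Pcgf5 stretch 27, the Rybp stretch 24, the Ezh2 stretch 18, the Rnf2 stretch 17 and the Ezh1 stretch 13, while the distal peak of Rnf2 holds 1. The Jarid2 intron peak holds 13, as many as the start of Ezh1. A like split between own TSS and distal peaks was seen when the 300 bp around each midpoint were measured. The GC content of the own TSS peaks ran from 64.0% to 80.7% and their CpG observed/expected ratio from 0.672 to 1.085. The peaks at the TSS of another gene reached lower, with ratios from 0.505 to 1.05. Apart from the Jarid2 intron peak, no distal peak had a ratio above 0.341, and the median over all distal peaks was 0.233 in both lists.

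**Figure D2:**
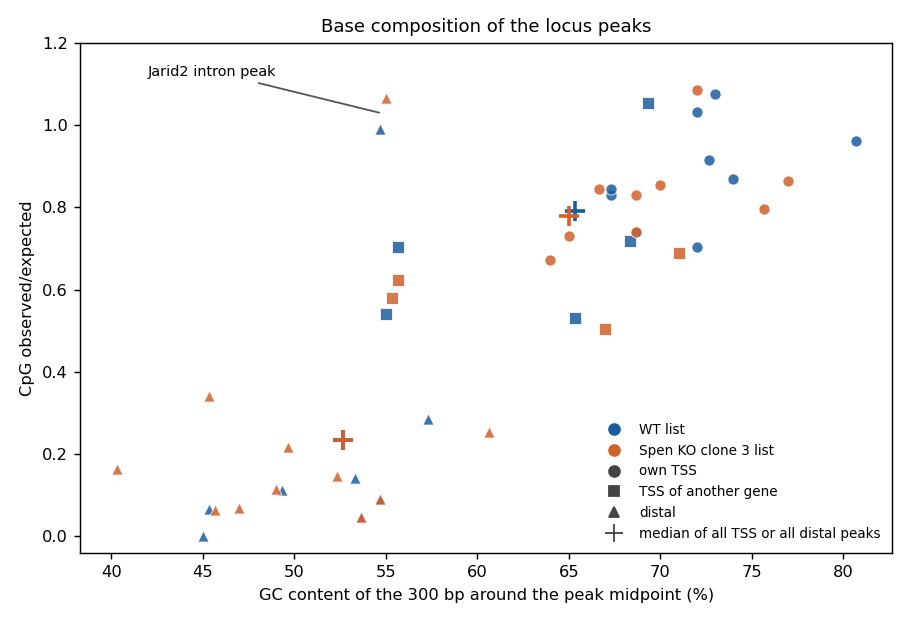
CpG observed/expected ratio against GC content (%) of the 300 bp around the midpoint of each locus peak, with 1 marker per peak and list. Crosses are medians over all TSS peaks (upper right) or all distal peaks (lower left) of each list. The own TSS peaks lie around the upper crosses and the distal peaks around the lower ones, except the Jarid2 intron peak at ratios of 0.991 and 1.06. Peaks at the TSS of another gene reach down to a ratio of 0.505.

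Of the 10 genes, 8 had an own TSS peak in each list. Over all coding genes the share was 46.3% in WT and 42.6% in clone 3. Ezh2, Ezh1, Suz12, Jarid2, Rnf2, Pcgf3 and Pcgf5 had one in both lists, as did 38.1% of coding genes. Ring1 had one in the WT list alone, as did 8.25% of coding genes, and Rybp in the clone 3 list alone, as did 4.48%. Eed had one in neither list, as did 49.2%. A start was called CpG-rich when its 300 bp had at least 50% GC and a ratio of at least 0.6. The outermost start of 8 of the 10 genes was CpG-rich, all but those of Jarid2 and Pcgf5, against 48.1% of 22349 coding genes. Of these 8 genes, 5 had an own TSS peak in both lists and 1 in neither, against 59.7% and 21.7% of the 10757 coding genes with such a start.

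Of the 22 WT locus peaks, 3 overlapped no clone 3 peak (13.6%, 95% Wilson interval 4.75 to 33.3), against 25.7% of the whole WT list. Of the 24 clone 3 locus peaks, 5 overlapped no WT peak (20.8%, interval 9.25 to 40.5), against 28.6% of that list. The intervals cover counting error only and treat the peaks as independent, although they lie in the windows of 10 genes. Both intervals hold the share of the whole list. These counts move with the window and the score limit. With 50 kb on either side they were 11 in WT and 7 in clone 3, in the other order, and among peaks at or above the median score 1 and 0. With the window of 20 kb, the other 19 peaks of each list formed 19 pairs. In 5 pairs both clone 3 replicates ranked above both WT replicates, and in 4 pairs both ranked below. Over all 16837 pairs of the lists these shares were 23.1% and 22.6%. The general shares differed by class. Of the 8 pairs of own TSS peaks, 3 ranked above and 2 below, against 13.5% and 28.7% of all TSS pairs. Of the 8 pairs of distal peaks, 2 ranked above and 1 below, against 31.5% and 17.2% of all distal pairs. With 8 pairs a class, 1 pair is a large part of each count.

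**Figure D3:**
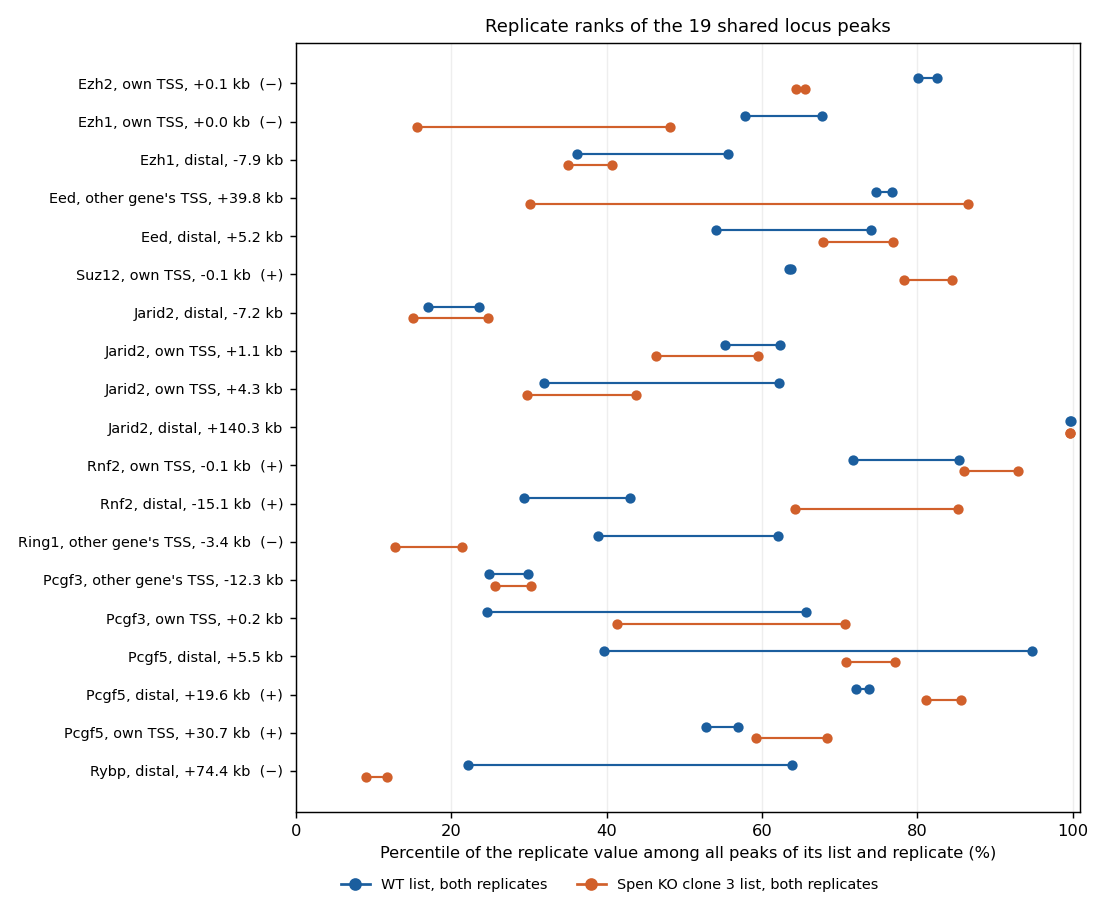
Percentile of each replicate value within its own list and replicate for the 19 shared locus peaks, with the 2 WT replicates in blue and the 2 clone 3 replicates in orange joined by lines. Labels give the gene, the class and the distance from the outermost start in the WT list, and (+) or (−) marks pairs in which both clone 3 replicates lie above or below both WT replicates. The widest gap between the lists is at the distal peak of Rnf2.

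The TSS peaks of Ezh2 and Ezh1, the catalytic subunits of PRC2, ranked lower in clone 3. At each, both clone 3 replicates ranked below both WT replicates, as in 28.7% of all TSS pairs. The Ezh2 gene (ENSMUSG00000029687.9, chr6:47480273-47545340, minus strand) carries the main H3 methyltransferase of proliferating cells. Its TSS peak had values of 32.4 and 29.2 in the WT replicates and 21.3 and 21.3 in the clone 3 replicates. The WT replicates stood at the 82.6 and 80.1 percentiles and the clone 3 replicates at 64.4 and 65.6, so the lists did not overlap. The score percentile was 16.2 points lower in clone 3. The stretch upstream of the outermost start, shown above, holds 2 matches to the E2F motif with 1 SP/KLF match between them, all read on the strand opposite to the gene.

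Ezh1 (ENSMUSG00000006920.8, chr11:101052429-101087777, minus strand) encodes the paralogous enzyme, which is more prominent in resting cells. Its TSS peak had values of 25.1 and 21.0 in WT and 17.5 and 11.3 in clone 3. The replicate percentiles were 67.7 and 57.8 in WT against 48.1 and 15.6 in clone 3. The score percentile was 35.0 points lower, although the clone 3 replicates were themselves 32.5 points apart. Of all pairs, TSS and distal together, 2.57% had a lower shift, and the TSS pairs alone had a median of -2.62. A distal peak 7.86 kb upstream was shared and overlapped in rank, with values of 21.2 and 16.1 in WT and 16.2 and 14.8 in clone 3. Its WT sequence had 66 other matches in the genome of at least 100 bp at 80% identity or more. The window also held 2 peaks found in 1 list, each at the start of a neighbouring gene. The WT-only peak (chr11:101032408-101032957) lay at the starts of Cntnap1 and Plekhh3, past the end of Ezh1, with values of 22.2 and 26.2 at the 67.7 percentile. The clone 3-only peak (chr11:101107262-101107815) lay at the start of Ramp2, a co-receptor gene, with values of 7.37 and 9.21 at the 3.29 percentile and an IDR of 0.0412, close to the threshold.

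The core partners of the enzymes differed from them and from each other. Suz12 (ENSMUSG00000017548.9, chr11:79806608-79847625, plus strand) had the only locus peak of a PRC2 core gene that ranked higher in clone 3 in all replicate comparisons. The values were 23.7 and 22.6 in WT and 26.3 and 29.3 in clone 3, at the 63.7 and 63.5 percentiles against 78.3 and 84.5. The score percentile was 18.1 points higher. The WT peak spanned 908 bp and the clone 3 peak 620 bp.

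Eed (ENSMUSG00000030619.8, chr7:97103166-97129493, minus strand) had no peak at either of its 2 annotated starts, although the outermost start had 59.0% GC and a CpG ratio of 0.690. The RefSeq start, placed on mm9 by its sequence, was 4.95 kb from the nearest WT peak and 4.98 kb from the nearest clone 3 peak. That peak lies inside the Eed intron and was shared, with values of 27.6 and 19.99 in WT and 22.4 and 25.3 in clone 3. Its replicate ranks overlapped between the lists. A second intron peak, 23.6 kb from the outermost start (chr7:97105743-97106111), was found in the clone 3 list only, with values of 12.3 and 13.1 at the 19.9 percentile. The remaining peak of the window lay at the start of l7Rn6, 13.5 kb past the end of Eed, with values of 29.1 and 26.6 in WT and 31.3 and 13.9 in clone 3. The 2 clone 3 replicates of that peak were 56.4 percentile points apart, and its ranks overlapped between the lists.

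Jarid2 (ENSMUSG00000038518.8, chr13:44824843-45017012, plus strand) held 2 own TSS peaks, both with midpoints nearest to starts inside the annotated gene. The edge of the first also lay within 1 kb of the outermost start, with its midpoint 1.15 kb from that start in WT and 1.38 kb in clone 3. The first (chr13:44825705-44826273 in WT) had values of 23.3 and 20.3 in WT and 17.3 and 19.7 in clone 3. The second (chr13:44828861-44829520 in WT) had values of 16.0 and 22.1 in WT and 14.3 and 16.3 in clone 3. The score percentiles were 6.44 and 13.9 points lower in clone 3, but the replicates overlapped in both cases. The first was the only own TSS peak that was wider in clone 3, at 848 bp against 569 bp. A weak distal peak 7.15 kb upstream of the outermost start was shared and nearly level, at the 17.5 percentile in WT and 18.2 in clone 3.

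The distal peak in the Jarid2 intron, 140 kb from the outermost start (chr13:44964816-44965532 in WT), was the strongest of all locus peaks. Its values were 95.4 and 86.3 in WT and 79.1 and 76.6 in clone 3. It ranked 63 of 22698 in WT and 75 of 23656 in clone 3, and 55 among the distal peaks of either list. Its CpG ratio of 0.991 in WT lay at the 99.01 percentile of the 12644 distal WT peaks. None of the 8 motifs was found in the 300 bp around the midpoint of the peak, the part that was searched. The sequence of the peak was not unique. At a limit of 100 bp and 80% identity it had 24602 other matches in the genome for the WT peak and 24434 for the clone 3 peak. Of the WT matches, 24579 lay mostly outside the inner part described next and 23 mostly inside it. In the rest of the genome, 19 stretches of at least 200 bp matched it at 81.0% to 98.9% identity, the longest over 463 bp, and the outermost positions that at least 3 of them covered bounded an inner part of 457 bp (chr13:44964956-44965412). Of these 19 stretches, 12 lay in a WT peak and 11 in a clone 3 peak, with median score percentiles of 98.6 and 98.2. These letters read as part of the 28S ribosomal RNA on the opposite strand, which is background knowledge, since no ribosomal RNA sequence was aligned here. The ribosomal genes themselves are repeated arrays that are mostly missing from the genome assembly, and only reads with a unique position in that assembly were kept. The part of reads from those arrays in the height of the peak was not tested.

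The genes of the PRC1 ligases differed from each other. Rnf2 (ENSMUSG00000026484.7, chr1:153316536-153347953, minus strand), the main H2A ligase of mESCs, had the highest-ranked own TSS peak of the 10 genes in clone 3. Its values were 26.7 and 32.8 in WT and 31.0 and 37.8 in clone 3, at the 71.8 and 85.4 percentiles against 86.1 and 93.0. The lists came within 1 percentile point of each other without overlapping. The E2F motif was found in the peak in both lists.

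A distal peak 15.1 kb upstream of Rnf2 showed the largest shift of all locus pairs. Its values were 15.4 and 17.5 in WT and 30.4 and 20.9 in clone 3. The replicate percentiles were 29.3 and 43.0 in WT against 85.3 and 64.3 in clone 3. The score percentile was 44.8 points higher, above 98.8% of the shifts of all pairs, TSS and distal together. The distal pairs alone had a median of 3.38. The Rnf2 distal sequence shown above is the middle of this peak, with 1 CpG and no motif match. A further peak 8.22 kb past the end of Rnf2 (chr1:153307961-153308665) was found in the clone 3 list only, with values of 7.89 and 9.81 at the 4.98 percentile, and had 37 other genome matches of at least 100 bp.

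Ring1 (ENSMUSG00000024325.8, chr17:34157737-34161625, minus strand) is a short gene of 3.89 kb in the major histocompatibility region, with 4 other coding genes starting inside its window. Its own TSS peak (chr17:34161174-34161630) was in the WT list only, with values of 12.7 and 15.3 at the 19.7 percentile. The nearest clone 3 peak was 3.21 kb from the start. That peak lay at the start of H2-Ke6 and was shared, with values of 17.4 and 22.03 in WT and 10.9 and 12.4 in clone 3. It ranked 36.3 points lower in clone 3 without overlap, and its IDR there was 0.0499, just inside the threshold. The peak at the starts of Rxrb and Slc39a7 (chr17:34168444-34168888) was also in the WT list only, with values of 9.98 and 8.37 at the 4.14 percentile. All 3 WT peaks of this window thus had a lower rank or no counterpart in clone 3. Of the whole WT list 25.7% had no counterpart, and 28.7% of all TSS pairs ranked below without overlap.

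Among the subunits of variant PRC1, Pcgf3 and Pcgf5 had an own TSS peak in both lists. Pcgf3 (ENSMUSG00000033623.7, chr5:108890251-108935995, plus strand) had the widest locus peak of the WT list at its own start, at 1022 bp. It spanned 815 bp in clone 3, where the peak at the start of the neighbour Mfsd7a, at 950 bp, was the widest of the loci. Its values were 24.4 and 14.2 in WT and 16.3 and 22.9 in clone 3. The WT replicates were 41.1 percentile points apart and the ranks overlapped between the lists. The NRF1 motif was found in this peak in both lists, as in 4.23% of WT and 4.05% of clone 3 TSS peaks. The other peak of the window, at the start of Mfsd7a 12.3 kb upstream, was level at the 24.1 and 25.5 percentiles.

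Pcgf5 (ENSMUSG00000024805.8, chr19:36453557-36530682, plus strand) had its TSS peak at the inner of its 2 annotated starts, 30.7 kb into the gene, and none at the outer one. The values were 21.6 and 19.6 in WT and 22.5 and 19.6 in clone 3. These values were nearly equal. The percentiles were 56.9 and 52.8 in WT against 68.3 and 59.2 in clone 3, since a given value ranks higher in the clone 3 list, whose median score was 17.9 against 19.4 in WT. The stretch upstream of this start holds an E2F match. RefSeq lists one more start, which lies at position 36422819 of chromosome 19 in mm9 and outside the 20 kb window. A WT peak covered it at the 12.96 percentile, and a clone 3 peak lay 273 bp away with values of 6.26 and 6.18, among the lowest of its list.

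Both distal peaks of Pcgf5 lay in an intron of the annotated gene and were shared. The one 19.6 kb from the outermost start had values of 26.8 and 26.1 in WT and 30.6 and 27.3 in clone 3. Its percentiles of 72.1 and 73.8 against 85.6 and 81.2 did not overlap. The one 5.54 kb from that start had values of 17.6 and 44.7 in WT and 23.4 and 25.4 in clone 3. The WT replicates of this peak disagreed by 55.2 percentile points, the widest spread of any WT pair member, and the lists overlapped.

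Rybp (ENSMUSG00000072872.2, chr6:100178560-100237435, minus strand), a subunit that stimulates the ligase in variant PRC1, had no TSS peak in WT. In clone 3 a peak had its midpoint 0.638 kb upstream of the start (chr6:100237764-100238383), with values of 8.39 and 9.60 at the 5.46 percentile. A peak inside the Rybp intron (chr6:100220892-100221231) was also in the clone 3 list only, with values of 10.3 and 10.3 at the 10.1 percentile. Both were thus among the weakest peaks of their list. The remaining peak, 15.6 kb past the end of the gene, was shared, with values of 14.1 and 22.7 in WT and 9.69 and 10.3 in clone 3. It ranked 35.6 points lower in clone 3 without overlap, in the opposite direction to the peaks gained in that list.

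Over the 8 pairs of own TSS peaks, 4 ranked higher and 4 lower in clone 3, and the median shift was 1.36 points with a range from -35.0 to 18.1. Over all 7905 pairs of TSS peaks the median was -2.62 and 37.8% ranked higher. Over the 8 pairs of distal peaks, 4 ranked higher and 4 lower, with a median of 0.33. Over all 8910 distal pairs the median was 3.38 and 60.6% ranked higher. Over the 4 ways of setting 1 WT replicate against 1 clone 3 replicate, the median ran from -9.05 to 5.33 points for the own TSS pairs and from -0.64 to 6.08 for the distal pairs. Both ranges include 0. The median of the own TSS pairs took the other sign, at -9.05, when the first value of each list alone was ranked, and was 5.33 with the second alone. If the values were those of the treatments, in the same order in both lists, these would be shifts within a treatment.

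**Figure D4:**
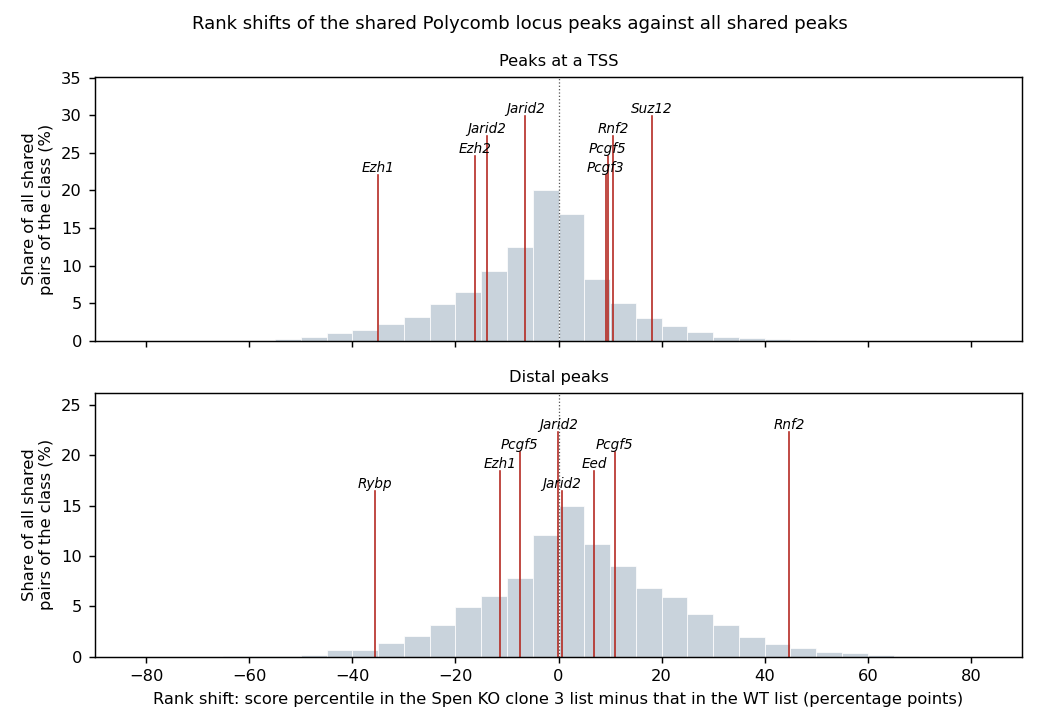
Bars give the share (%) of all shared pairs of TSS peaks (upper panel) or distal peaks (lower panel) in bins of 5 points of rank shift, and red lines mark the shared peaks of the Polycomb loci, whose heights are set only for legibility. The own TSS peaks run from -35.0 at Ezh1 to 18.1 at Suz12, and the distal peaks from -35.6 at Rybp to 44.8 at Rnf2, on both sides of 0.

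The own TSS peaks were narrower in clone 3 in 7 of 8 pairs, with a median change of -124 bp. Over all TSS pairs 63.8% were narrower, with a median of -31 bp. The change at Suz12 was -288 bp, at Rnf2 -245 bp and at Pcgf3 -207 bp. Suz12 and Rnf2 thus had peaks of higher rank and smaller width in the same list. At the distal pairs 5 of 8 were narrower, with a median of -8.5 bp, against 52.3% and -4 bp over all distal pairs.

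Of the 8 motifs, SP/KLF was found in the 300 bp around the midpoint of 3 of the 9 own TSS peaks in WT and 1 of 9 in clone 3, against 33.0% of all TSS peaks in either list. E2F was found in 1 of 9 in WT and 3 of 9 in clone 3, against 4.66% and 4.56%. The count of E2F differed between the lists because the midpoints of the same peaks differed, at Ezh2 and Pcgf5. ETS and YY1 were in none of the own TSS peaks, against 6.97% and 2.79% of WT TSS peaks. The Oct4 octamer and the Esrrb motif were in none of the locus peaks, but both were rare in general, at 4.71% and 3.50% of distal and 1.52% and 0.91% of TSS peaks in WT. With so few peaks such counts are a description only.

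A list of 31 other Polycomb genes was read in the same way. Of these, 16 had an own TSS peak in both lists, among them Cbx7, a chromodomain subunit of canonical PRC1, Mtf2, an accessory subunit of PRC2, and Kdm2b, which brings variant PRC1 to CpG-rich DNA. The 5 with one in WT only were Cbx2, Phc3, Pcgf6, L3mbtl2 and Epop. The 3 with one in clone 3 only were Phc1, Yaf2 and Scmh1, of which Yaf2 encodes the paralogue of Rybp. The 7 with none were Cbx6, Bmi1, Pcgf2, Aebp2, Bcor, E2f6 and Bap1. The shares were 51.6% in both lists, 16.1% in WT only, 9.68% in clone 3 only and 22.6% in neither, against 38.1%, 8.25%, 4.48% and 49.2% of coding genes. Where both lists had a peak, the strongest ranked lower in clone 3 in 10 of 16 genes (62.5%) and higher in 6, with a median difference of -5.61 points. Over the 8438 distinct symbols of the 8514 coding gene entries with a peak in both lists, 62.7% ranked lower, a like share, and the median was -2.67.

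The labelled cell type was checked at 8 genes of pluripotent cells. Pou5f1, Esrrb, Zfp42 and Tfcp2l1 had an own TSS peak in both lists, Sox2 in WT only and Klf4 in clone 3 only, while Nanog and Dppa4 had none. The 4 of 8 in both lists (50%) stand against 38.1% of coding genes. Of 7 matched marker genes of other cell types, 6 had none, against 49.2% of coding genes, and Pax6 had one in both lists. Sox1, also on that list, was not matched in the annotation. The deleted gene itself, Spen, had an own TSS peak in both lists, with values of 15.7 and 18.7 in WT and 20.5 and 13.1 in clone 3, so the peaks do not check the knockout label. Read depth is unknown for both lists.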

How the data were processed

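Nuclei were transposed with Tn5. The authors removed adapters (CutAdapt), aligned the reads to mm9 (Bowtie2), discarded reads that were duplicated, not unique or not properly paired, ran MACS2 without its shifting model on each technical replicate and retained the peaks below their IDR threshold. They deposited 1 list per line, with a value per replicate and the IDR of each peak. The scale of these values is not named.

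Only chromosomes 1 to 19 and X entered the results, leaving out 55 WT and 66 Spen KO clone 3 peaks. The 10 genes, the other gene lists and the motifs were chosen with earlier results of these data known. All 10 genes were described with every peak. Own TSS peaks overlapped 1000 bp on either side of the start of any transcript of the gene. Peaks sharing at least 1 bp were shared, and pairs were reciprocal best overlaps. The rank shift is the score percentile in Spen KO clone 3 minus that in WT. Starts from RefSeq (GRCm38.p6) were placed on mm9 by exact sequence match, 12 starts of 9 genes. Rybp had no entry. Genome matches came from megablast in BLAST 2.17.0, at 80% identity or more. Overlaps, ranks, pairs and motif search were tested on simulated data. Python 3.11.15, pandas 2.3.3, scipy 1.17.1, pysam 0.24.0, samtools 1.23.1 and matplotlib 3.10.9 were used. Alternatives covered the flank, the overlap, the TSS window, the ranking and the replicates.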

Additional observations from a re-analysis of the deposited data

How the results depend on the processing

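Of 49 alternatives over 10 results, 36 stayed within the limits set for a small change. The number of locus peaks follows the window. In WT it was 13 with the gene body alone, 14 with a flank of 5 kb and 40 with 50 kb, and in Spen KO clone 3 it was 14 with the gene body alone and 36 with 50 kb. Peaks found in WT only numbered 1 with the gene body alone, 1 with 5 kb, 11 with 50 kb and 1 among peaks at or above the median score. Those in Spen KO clone 3 only numbered 2 with the gene body alone, 3 with 5 kb, 7 with 50 kb and 0 among peaks at or above the median score. Pairs with both Spen KO clone 3 replicates below numbered 2 with the gene body alone. In each of these the smaller or larger window or the score limit itself changed which peaks were counted. The 9 pairs that ranked apart kept their direction when ranked within their class or over shared peaks alone, and over shared peaks the Jarid2 intron pair joined those below, giving 5 in place of 4. The median shift of the own TSS pairs ran from -9.05 without replicate 2 to 5.33 without replicate 1, and that of the distal pairs from -0.64 to 0.48. The distal median was also -0.88 when ranked within class and up to 6.08 over the replicate combinations, so its sign changed with these choices. The cause of the difference between replicates was not tested. Leaving out the Jarid2 intron peak, an alternative chosen after seeing the data, gave a distal median of 0.69. No paired analysis was possible because it is not known whether the values pair across lines, being technical replicates or the untreated and doxycycline samples. The medians without replicate 1 or 2 set like-numbered values against each other. The scale of the values and the depth are unknown.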
